A study of Mus musculus with 60 samples.

Results

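Lysosomal hydrolases, their cofactors, proteins of the lysosomal membrane and subunits of the proton pump were followed as a set of 37 genes through brain development and after an inflammatory challenge in mouse microglia, the resident macrophages of the brain. The members were listed by name, and each was read from 1 transcript row of a table holding 22869 gene symbols. All 37 had a row. Messenger RNA had been sequenced in 60 libraries from mice of the C57BL/6N strain, with no transgene or mutation named in the labels. Untreated animals were sampled at embryonic day 18 (E18, 3 libraries titled female and 4 titled male), at postnatal day 4 (P4, 4 and 4) and at P14 (10 and 10). At P60 the animals had received saline (7 and 5) or lipopolysaccharide (LPS, the endotoxin of bacterial outer membranes, which microglia sense through Toll-like receptors; 6 and 7). Dose, route and delay of the LPS treatment, and how the microglia were isolated, are not stated in the labels. Whether the libraries stem from separate animals is not stated in the labels, and p-values therefore measure only the spread between these libraries.

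Lysosomes are acidic organelles in which hydrolases break down glycans, lipids, proteins and nucleic acids delivered by endocytosis, phagocytosis and autophagy. A proton pump, the V-ATPase, acidifies the lumen, membrane glycoproteins shield the membrane, and transporters and channels export the products. Microglia clear dying cells, synapses and myelin debris through this compartment, and inherited loss of many of these genes causes lysosomal storage disease, often with neurodegeneration.

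Levels are given as CPM (counts of a gene scaled to a common total of 1000000 over all gene symbols). Changes are log2 fold changes ± SE from the quasi-likelihood F test of edgeR with Benjamini-Hochberg adjustment over all genes tested, and a gene is said to rise or fall only at an adjusted p under 0.05. These changes rest on library sizes scaled by TMM (trimmed mean of M-values), which CPM, the ranges and the shares of counts do not use. A median CPM and a change can therefore differ in size or direction. Library totals ran from 802016 to 3497454 counts, and the LPS libraries were the shallowest with a median of 970080. All 10 microglia markers were detected in every library, and their summed level had a median of 4494 CPM at E18, 13946 at P4, 24595 at P14, 35118 at P60 with saline and 28586 with LPS. Neuronal markers summed to 683 to 3637 CPM (median 2581) at E18 and to 80.7 to 303 CPM (median 251) at P4. Ttr, the transthyretin gene of the choroid plexus, took 24.8% of the counts of the library titled M_E18 4, 10.4% of M_E18 3 and 12% of F_P60_Sal 6. The library titled M_E18 4 also went against its title, with 0 counts of 4 Y-linked genes where the 29 other libraries titled male had 375 to 1775 and the 30 titled female 0 to 106. In 10 libraries the title and the sex given elsewhere in the labels disagree, and the titles were used. The library titled M_E18 4 is among them, is given as female there, and was fitted as male. In all other libraries the counts of the 4 Y-linked genes went with the title, as the ranges above do not overlap. Dates of the 3 P14, 3 saline and 3 LPS collections are named below in calendar order. None of the 17 collection dates held more than 1 stage or treatment, so date of collection and group cannot be told apart.

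Many lysosomal genes carry near their start a palindromic letter pattern that the regulator TFEB and its relatives are known to bind, and these stretches are shown because the set includes Tfeb itself and genes that moved in different directions. RefSeq promoter sequences (GRCm38.p6, from 250 bases before to 50 bases after the annotated start, 300 in all) were found for 32 of the 37 members. Asah1, Atp6v1b2, Atp6v1h, Galns and Npc1 are named only. The letters CACGTG occurred in 10 of the 32 member promoters and in 8.09% of 27025 genes with a sequence. The longer TCACGTG, read on either strand and containing the shorter one, occurred in the same 10 members and in 4.29% of genes. TCACGTGA occurred in 5 of 32 (Atp6v0d1, Atp6v1a, Cln3, Gla and Mcoln1) and in 1.12% of genes. The stretches below run 5′ to 3′ along the strand of the gene, with capitals marking TCACGTG or its reverse complement CACGTGA, which overlap in TCACGTGA.
Lamp1 (chr8:13159079-13159170, plus strand): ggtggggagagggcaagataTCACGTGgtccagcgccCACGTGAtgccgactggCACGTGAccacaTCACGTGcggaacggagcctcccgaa
Mcoln1 (chr8:3500427-3500500, plus strand): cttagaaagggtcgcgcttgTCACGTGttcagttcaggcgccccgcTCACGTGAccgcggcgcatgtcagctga
Cln3 (chr7:126583331-126583405, minus strand): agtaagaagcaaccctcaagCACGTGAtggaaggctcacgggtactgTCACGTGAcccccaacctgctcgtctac
Gla (chrX:134601173-134601253, minus strand): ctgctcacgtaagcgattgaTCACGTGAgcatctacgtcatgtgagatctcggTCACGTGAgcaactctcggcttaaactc
Atp6v0d1 (chr8:105566055-105566088, minus strand): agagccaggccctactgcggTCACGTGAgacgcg
Atp6v1a (chr16:44139364-44139411, minus strand): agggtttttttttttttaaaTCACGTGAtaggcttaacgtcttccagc
Lgmn (chr12:102439116-102439162, minus strand): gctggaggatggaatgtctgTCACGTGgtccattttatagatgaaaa
Naglu (chr11:101070000-101070046, plus strand): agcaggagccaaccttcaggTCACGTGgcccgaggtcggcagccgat
Glb1 (chr9:114401009-114401055, plus strand): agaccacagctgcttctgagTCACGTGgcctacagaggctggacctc
Gaa (chr11:119267802-119267848, plus strand): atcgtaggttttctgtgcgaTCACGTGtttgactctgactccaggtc
Lamp1 held 4 such matches, whose CACGTG cores began 61, 45, 28 and 15 bases before the annotated start, while Mcoln1, Cln3 and Gla held 2 each and the others 1. In Gla the cores began 227 and 194 bases before the start, and in Atp6v0d1 the core spanned the start. A match is a description of letters and not of binding, and the 10 members did not move as one. From E18 to P4, 3 of the 10 rose and 1 fell, against 15 and 1 of the 22 members without a match, with median changes of 0.27 and 0.58. From P4 to P14, 5 of the 10 rose and 0 fell, against 6 and 1 of the 22, with medians of 0.37 and 0.21. From P14 to P60 with saline, 0 of the 10 rose and 4 fell, against 3 and 4 of the 22, with medians of -0.17 and 0.00. Between E18 and P60, 4 of the 10 rose and 2 fell, against 16 and 1 of the 22, with medians of 0.23 and 0.87. Of all 13853 genes tested, 25.5% rose and 22.7% fell from E18 to P4, and 20.6% and 20.8% from P4 to P14. From P14 to P60 with saline it was 18.5% and 25.7%, and between E18 and P60 31.4% and 34.8%. The difference between the 10 and the 22 was not tested.

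Together the 37 members took 0.956% to 1.31% of all counts at E18 (median 1.15%), 1.26% to 2.07% at P4 (median 1.64%), 1.45% to 1.89% at P14 (median 1.66%), 1.44% to 1.96% at P60 with saline (median 1.71%) and 1.18% to 2.00% with LPS (median 1.45%). The summed share was thus lower at E18 than later, with ranges that touched those of P4, and it differed little between the 3 postnatal stages. Psap, the precursor of the saposins that help hydrolases reach lipids, and Lgmn, an asparaginyl endopeptidase, were the most abundant members per kilobase of transcript at every stage. Psap had a median of 742 CPM per kilobase at E18 and 1191 at P60 with saline. Lgmn had 649 and 1421, and passed Psap from P4 onward. Laptm5, Lamp1 and Grn took the next 3 places at every stage. At the other end Tfeb and Galns took the last 2 places of the 36 members with a length at every stage but E18, when Manba stood between them, with Tfeb at 4.56 to 10.5 CPM per kilobase over the 5 conditions. Without Psap and Lgmn the summed share had medians of 0.800%, 1.12%, 1.13%, 1.08% and 0.953% in the same order of conditions, so the step between E18 and P4 did not rest on these 2 genes.

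**Figure D1:**
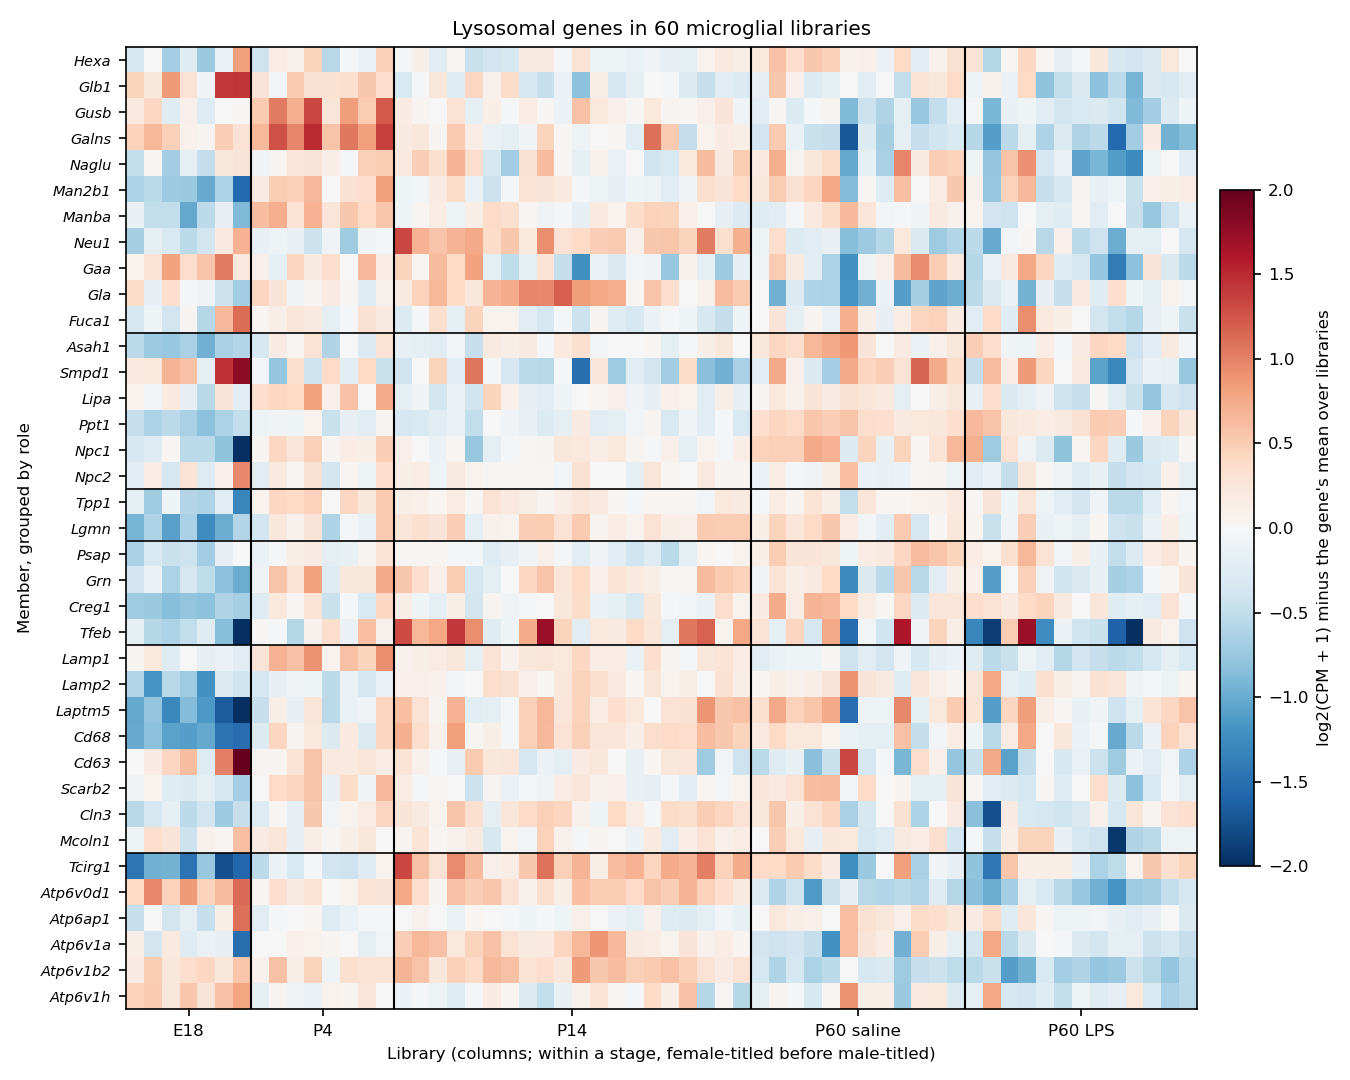
Each row is 1 of the 37 lysosomal genes grouped by role and each column 1 of 60 libraries grouped by stage and treatment; colour is log2(CPM + 1) minus the mean of the gene over all libraries, with the scale ending at -2 and 2. Most rows are blue at E18, the proton pump rows Atp6v0d1 and Atp6v1b2 turn from red at P14 to blue at P60, and the last E18 column, the library titled M_E18 4, differs from its neighbours.

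The earliest step held the most members that passed. From E18 to P4, 21 members rose, 3 fell and 13 did not pass, where 25.5% of the 13853 genes tested rose and 22.7% fell. The median change was 0.53 over the members and 0.03 over all genes tested. The ranges of the libraries did not overlap for 10 members, against 13.7% of all genes tested. From P4 to P14, 13 members rose, 2 fell and 22 did not pass, where 20.6% of genes rose and 20.8% fell, with a median of 0.25 against -0.01. Ranges did not overlap for 3 members (6.11% of genes). From P14 to P60 with saline, 5 members rose, 10 fell and 22 did not pass, where 18.5% of genes rose and 25.7% fell. The medians were -0.03 and -0.06, so the members stood close to the background, and ranges did not overlap for 3 members (2.34% of genes). Between the ends of the course, P60 with saline against E18, 22 members rose, 4 fell and 11 did not pass, where 31.4% of genes rose and 34.8% fell, with medians of 0.64 and -0.08 and 8 members without overlap (19.3% of genes). After LPS, 1 member rose, 0 fell and 36 did not pass, where 10.5% of the 10538 genes tested rose and 3.95% fell. These comparisons share libraries, so their values are set side by side and not counted as separate evidence.

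The count of members higher at P60 than at P14 depended on the processing. It was 5 as given, 10 with the size factors of DESeq2, which move the median of all genes from -0.06 to -0.01, 13 without the 3 libraries with over 10% of their counts in Ttr, and 11 without the library titled M_E18 4. While the members rose from E18 to P4, all 10 microglia markers rose too, with a median change of 1.8, and 12 of 12 neuronal markers tested fell, with a median of -3.50. Neutrophil markers rose as well at this step (8 of 9, median 3.11) and so did monocyte markers (5 of 8, with 1 falling, median 1.3). From P4 to P14 both fell, 8 of 9 (median -3.13) and 7 of 8 (median -1.74), and their sums at P4 were 310.1 to 8602 CPM (median 1335) and 296 to 1409 CPM (median 459), highest in F_P4 4. In bulk libraries fewer cells of a type and less RNA per cell cannot be told apart, and the part of any of these cells in the rise of the members was not tested. Without the library titled M_E18 4 the counts from E18 to P4 were 21 higher and 2 lower, and without all 3 libraries rich in Ttr they were 24 and 2.

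**Figure D2:**
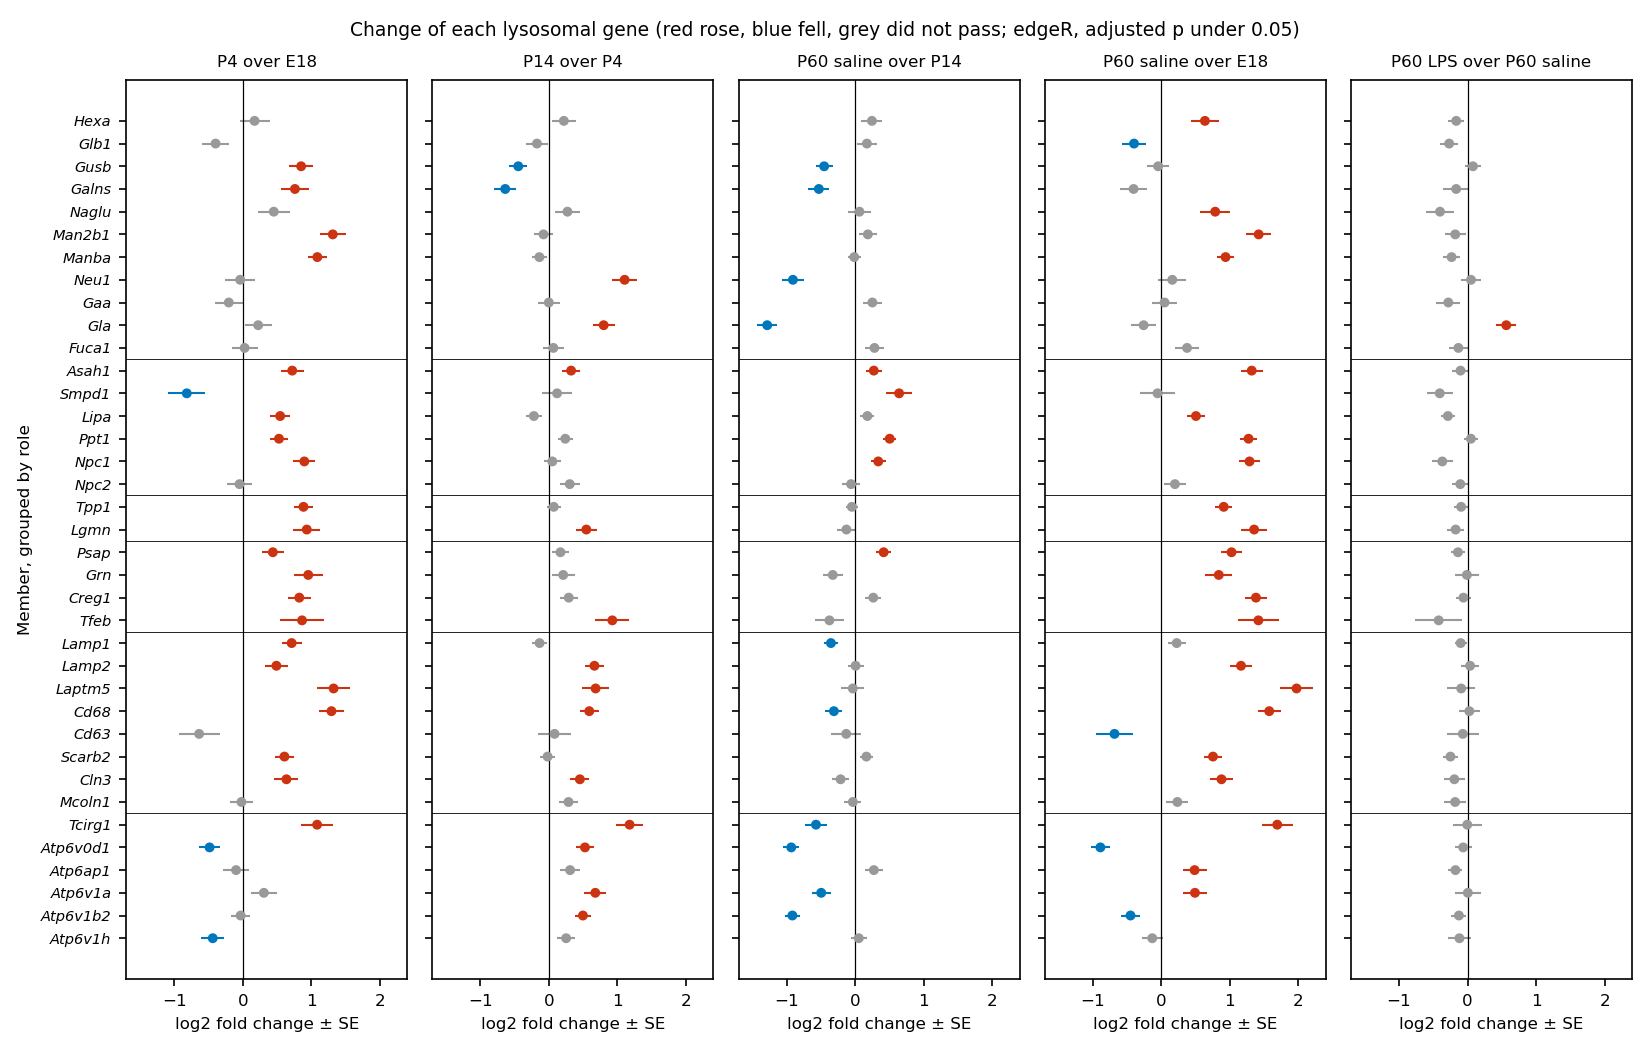
Log2 fold change ± SE of each of the 37 members in 5 comparisons, from edgeR; red points rose, blue points fell and grey points did not pass an adjusted p under 0.05, and horizontal lines separate the role groups. Red points dominate the E18 to P4 panel (21 of 37), blue points number 10 of 37 in the P14 to P60 panel, and Gla is the only coloured point after LPS.

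The glycan and glycogen hydrolases, 11 members, differed in when they were highest, with 4 rising from E18 to P4, 2 rising and 2 falling from P4 to P14, and 4 falling from P14 to P60 with saline. For this and the later role groups, 25.5% of all genes rose and 22.7% fell from E18 to P4, and 20.6% and 20.8% from P4 to P14. From P14 to P60 with saline the shares were 18.5% and 25.7%, and between E18 and P60 31.4% and 34.8%. Man2b1, the lysosomal alpha-mannosidase, ran over 162 to 328 CPM (median 287) at E18, 471 to 843 CPM (median 633) at P4, 352 to 629 CPM (median 461) at P14, 262 to 814 CPM (median 573) at P60 with saline and 282 to 745 CPM (median 497) with LPS. Every P4 library lay above every E18 library, and the rise was 1.31 ± 0.19 (adjusted p = 2.04e-07). Manba, the beta-mannosidase, ran over 29.8 to 55.8 CPM (median 43.6) at E18 and 73.1 to 103 CPM (median 90.6) at P4, again without overlap, and rose by 1.09 ± 0.13. Manba medians were lower again at P14 (64.3 CPM) and at P60 with saline (62.8 CPM), steps that did not pass at -0.14 ± 0.10 and -0.01 ± 0.09. At P60 with saline it stood 0.94 ± 0.13 above E18, and Man2b1 1.42 ± 0.18. Both mannosidases had their highest median at P4.

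Gusb and Galns, which act on glycosaminoglycans, had their highest level at P4. Gusb, the beta-glucuronidase, ran over 208 to 333 CPM (median 252) at E18, 295 to 632 CPM (median 426) at P4, 217 to 373 CPM (median 263) at P14 and 135 to 257 CPM (median 209.8) at P60 with saline. It rose by 0.85 ± 0.17 to P4, then fell by 0.45 ± 0.13 to P14 and by 0.45 ± 0.12 to P60, ending at -0.05 ± 0.16 against E18. Galns, a sulfatase that trims keratan sulfate and chondroitin sulfate, had medians of 31.3, 46.6, 23.6 and 16.9 CPM at these stages. It rose by 0.76 ± 0.20 and then fell by 0.64 ± 0.16 and 0.53 ± 0.15. Without the saline libraries of the last date the falls to P60 were -0.24, adjusted p = 0.15 for Gusb and -0.36, adjusted p = 0.0866 for Galns. The fall of Gusb after P4 did not pass with the replicate number as a block (adjusted p = 0.087).

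Neu1 and Gla peaked at P14. Neu1, a sialidase that removes terminal sialic acids, ran over 42.5 to 111 CPM (median 54.9) at E18, 41.2 to 66 CPM (median 62.6) at P4, 72.8 to 173 CPM (median 99.4) at P14, 37.4 to 87.3 CPM (median 55.8) at P60 with saline and 33.5 to 73.5 CPM (median 54.0) with LPS. All 20 P14 libraries lay above all 8 P4 libraries, and Neu1 rose by 1.11 ± 0.18 (adjusted p = 3.71e-06) and then fell by 0.91 ± 0.16 (adjusted p = 9.31e-06). Gla, the alpha-galactosidase whose loss causes Fabry disease, ran over 37.3 to 78.6 CPM (median 57.7) at E18, 50.9 to 82.2 CPM (median 63.7) at P4, 60.6 to 139.8 CPM (median 91.8) at P14 and 26.2 to 60.3 CPM (median 34.3) at P60 with saline. It rose by 0.80 ± 0.16 and fell by 1.28 ± 0.15 (adjusted p = 1.72e-09), the largest fall of any member between neighbouring stages, and the highest saline library lay just below the lowest P14 library. Leaving out the libraries of any 1 collection date at P14 or P60 left a fall of at least 1.09 for Gla and 0.70 for Neu1.

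The remaining glycan hydrolases changed less. Hexa, the alpha subunit of beta-hexosaminidase, and Naglu, which removes N-acetylglucosamine from heparan sulfate, passed no single step, but stood 0.64 ± 0.21 and 0.79 ± 0.22 higher at P60 with saline than at E18. Without the saline libraries of the second date the value was 0.36, adjusted p = 0.181 for Hexa and 0.36, adjusted p = 0.194 for Naglu, and with the size factors of DESeq2 in edgeR it was 0.44, adjusted p = 0.0512 for Hexa. Glb1, the beta-galactosidase, was 0.40 ± 0.18 lower at P60 than at E18 (adjusted p = 0.0499), a call that was lost in 17 of 36 other fits (-0.20, adjusted p = 0.254 without the library titled M_E18 4). Gaa, which breaks down glycogen, and Fuca1, a fucosidase, passed at no step, with 0.05 ± 0.19 and 0.37 ± 0.18 between E18 and P60.

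The lipid group had 6 members, of which 4 stood higher and 0 lower at P60 with saline than at E18. From E18 to P4, 4 rose and 1 fell, from P4 to P14 1 rose, and from P14 to P60 with saline 4 rose and 0 fell. Ppt1, which removes palmitate from proteins, ran over 126 to 162 CPM (median 146) at E18, 164 to 234 CPM (median 209) at P4, 158 to 254 CPM (median 195) at P14, 253 to 330.4 CPM (median 284) at P60 with saline and 220.5 to 349 CPM (median 262) with LPS. It rose by 0.53 ± 0.13 and again by 0.50 ± 0.09 (adjusted p = 1.86e-05), and its P14 and P60 saline libraries overlapped at 253 to 254 CPM only. Npc1, which passes cholesterol out of the lysosome, ran over 41.6 to 177 CPM (median 118) at E18, 179 to 242 CPM (median 197) at P4, 102 to 201 CPM (median 178) at P14, 142 to 291 CPM (median 237) at P60 with saline and 98.5 to 282 CPM (median 145) with LPS. Its rises were 0.90 ± 0.16 to P4 and 0.34 ± 0.11 from P14 to P60, the second lost without the P14 libraries of the second date or the saline libraries of the second date. Asah1, the acid ceramidase, had medians of 259.9, 417, 409 and 486 CPM at E18, P4, P14 and P60 with saline, and every saline library lay above every E18 library. It rose by 0.72 ± 0.17 to P4, while its later rises of 0.32 ± 0.13 and 0.27 ± 0.11 were close to the threshold and lost in 24 and 11 of 36 other fits. The first of these later rises holds on TMM-scaled library sizes only, as the median CPM did not rise from P4 to P14.

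Smpd1, the acid sphingomyelinase, took another course. It ran over 66.7 to 263 CPM (median 114) at E18, 43.7 to 99.2 CPM (median 69.6) at P4, 25.7 to 159.6 CPM (median 59.0) at P14 and 46.7 to 169 CPM (median 99.5) at P60 with saline. It fell by 0.82 ± 0.27 to P4 and rose by 0.64 ± 0.19 from P14 to P60, and its ranges overlapped throughout. The call of the fall was lost without the library titled M_E18 4, the highest at E18, which left a change of -0.57, adjusted p = 0.0624, and the later rise was 0.50, adjusted p = 0.0786 without the saline libraries of the last date. Lipa, the acid lipase that frees cholesterol from its esters, rose by 0.55 ± 0.15 to P4 and was 0.50 ± 0.14 higher at P60 with saline than at E18. Npc2, the soluble partner of Npc1, passed at no step and stood at 0.20 ± 0.17 between the ends.

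Both peptidases rose at the first step. Lgmn ran over 1042 to 1651 CPM (median 1292) at E18, 1608 to 3575 CPM (median 2517) at P4, 2189 to 3566 CPM (median 2981) at P14, 1956 to 3610.2 CPM (median 2828) at P60 with saline and 1821 to 3478 CPM (median 2302) with LPS. It rose by 0.94 ± 0.19 and by a further 0.55 ± 0.16 from P4 to P14, and all saline libraries at P60 lay above all E18 libraries. The second rise was lost without the P14 libraries of the last date (adjusted p = 0.0776). Tpp1, a tripeptidyl peptidase, ran over 157 to 368 CPM (median 259) at E18 and 389 to 565 CPM (median 518) at P4 with no overlap. It rose by 0.89 ± 0.13 (adjusted p = 4.84e-07) and stood at 0.07 ± 0.10 and -0.05 ± 0.09 in the next steps.

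All 4 soluble cofactors and regulators rose from E18 to P4. Psap ran over 1629 to 2615 CPM (median 1971) at E18, 2328 to 3184 CPM (median 2656) at P4, 1819 to 2822 CPM (median 2541) at P14, 2485 to 4051 CPM (median 3165) at P60 with saline and 1883 to 4156 CPM (median 2852) with LPS. It rose by 0.44 ± 0.16 to P4, a call lost with the size factors of DESeq2 (0.31, adjusted p = 0.0879), and by 0.42 ± 0.11 from P14 to P60, which was 0.27, adjusted p = 0.0585 without the P14 libraries of the second date. Grn, the progranulin gene, whose protein is cut into granulins in the lysosome, rose by 0.96 ± 0.21 from a median of 684 to 1157 CPM and passed at no later step. Creg1, a secreted glycoprotein found in lysosomes, kept within 75.4 to 89.9 CPM (median 80.8) at E18, the narrowest range relative to its level of the set, against 99.6 to 181 CPM (median 136) at P4 and 112 to 228 CPM (median 161) at P60 with saline. It rose by 0.83 ± 0.17 and ended 1.38 ± 0.16 above E18. Tfeb, the transcription factor that drives lysosomal genes, was among the least abundant members, at 1.46 to 14.2 CPM (median 10.7) at E18, 10.7 to 25.4 CPM (median 17.1) at P4, 13.7 to 56.2 CPM (median 24.7) at P14 and 4.99 to 52.3 CPM (median 16.9) at P60 with saline. It rose by 0.87 ± 0.32 and by 0.93 ± 0.25, with wide overlap between libraries. Without the library titled M_E18 4, where it was lowest, the first change was 0.67, adjusted p = 0.0825.

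Among the 8 membrane proteins, 6 rose from E18 to P4 and 4 from P4 to P14, with none falling at either step. Laptm5, a lysosomal membrane protein, had the largest change of all members over the course. It ran over 247 to 889 CPM (median 695) at E18, 1054 to 2073 CPM (median 1424) at P4, 1328 to 2820.1 CPM (median 1889) at P14, 532 to 2978 CPM (median 2018) at P60 with saline and 712 to 2735 CPM (median 1681) with LPS. Every P4 library exceeded every E18 library, and the rises were 1.33 ± 0.24 and 0.68 ± 0.19, giving 1.97 ± 0.24 between E18 and P60 (adjusted p = 6.61e-10). The second rise of Laptm5 was 0.48, adjusted p = 0.0661 without the P14 libraries of the last date. At P60 the lowest saline value came from F_P60_Sal 6, the library with 12% Ttr, and that library overlapped the E18 range. Cd68, the glycosylated protein widely used to mark phagocytic microglia, ran over 109.6 to 179 CPM (median 149) at E18, 257 to 427 CPM (median 345) at P4, 312 to 561 CPM (median 404) at P14, 226 to 473 CPM (median 342) at P60 with saline and 156 to 543 CPM (median 312) with LPS. Its E18 libraries lay below all P4 and all P60 saline libraries, and it rose by 1.30 ± 0.18 and 0.59 ± 0.14. The later fall of 0.31 ± 0.12 from P14 to P60 was lost in 21 of 36 other fits.

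Lamp1 and Lamp2, the main glycoproteins lining the lysosomal membrane, differed in timing. Lamp1 ran over 753 to 1047 CPM (median 837) at E18, 951 to 1716 CPM (median 1357) at P4, 793 to 1203 CPM (median 1005) at P14 and 679.5 to 921 CPM (median 819) at P60 with saline. It rose by 0.71 ± 0.14 to P4 and fell by 0.35 ± 0.10 from P14 to P60, ending at 0.22 ± 0.13 against E18. The fall was -0.23, adjusted p = 0.125 without the saline libraries of the last date and -0.22, adjusted p = 0.101 without the P14 libraries of the last date. Lamp2 ran over 353 to 674 CPM (median 544) at E18, 564 to 773 CPM (median 739) at P4, 782 to 1113 CPM (median 880.1) at P14 and 688 to 1524 CPM (median 889) at P60 with saline. It rose by 0.49 ± 0.17 and by 0.66 ± 0.14, with all P14 libraries above all P4 libraries, and ended 1.16 ± 0.16 above E18. The first of these rises was 0.37, adjusted p = 0.0642 with the size factors of DESeq2.

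Scarb2, which carries glucocerebrosidase to the lysosome, rose by 0.61 ± 0.14 to P4, and Cln3, a membrane protein lost in a childhood storage disease, by 0.64 ± 0.18 and then by 0.45 ± 0.14, which was 0.29, adjusted p = 0.128 without the P14 libraries of the last date. Mcoln1, a calcium channel of the lysosomal membrane, passed in no comparison with edgeR but did from E18 to P4 with limma-voom (0.39, adjusted p = 0.007), with medians between 38.5 and 48.2 CPM in the 5 conditions. Cd63, a tetraspanin of late endosomes and lysosomes, was 0.68 ± 0.28 lower at P60 with saline than at E18 (adjusted p = 0.0268). That value was -0.09, adjusted p = 0.711 without the library titled M_E18 4, in which Cd63 was at 496 CPM against at most 164 CPM in the other 6.

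**Figure D3:**
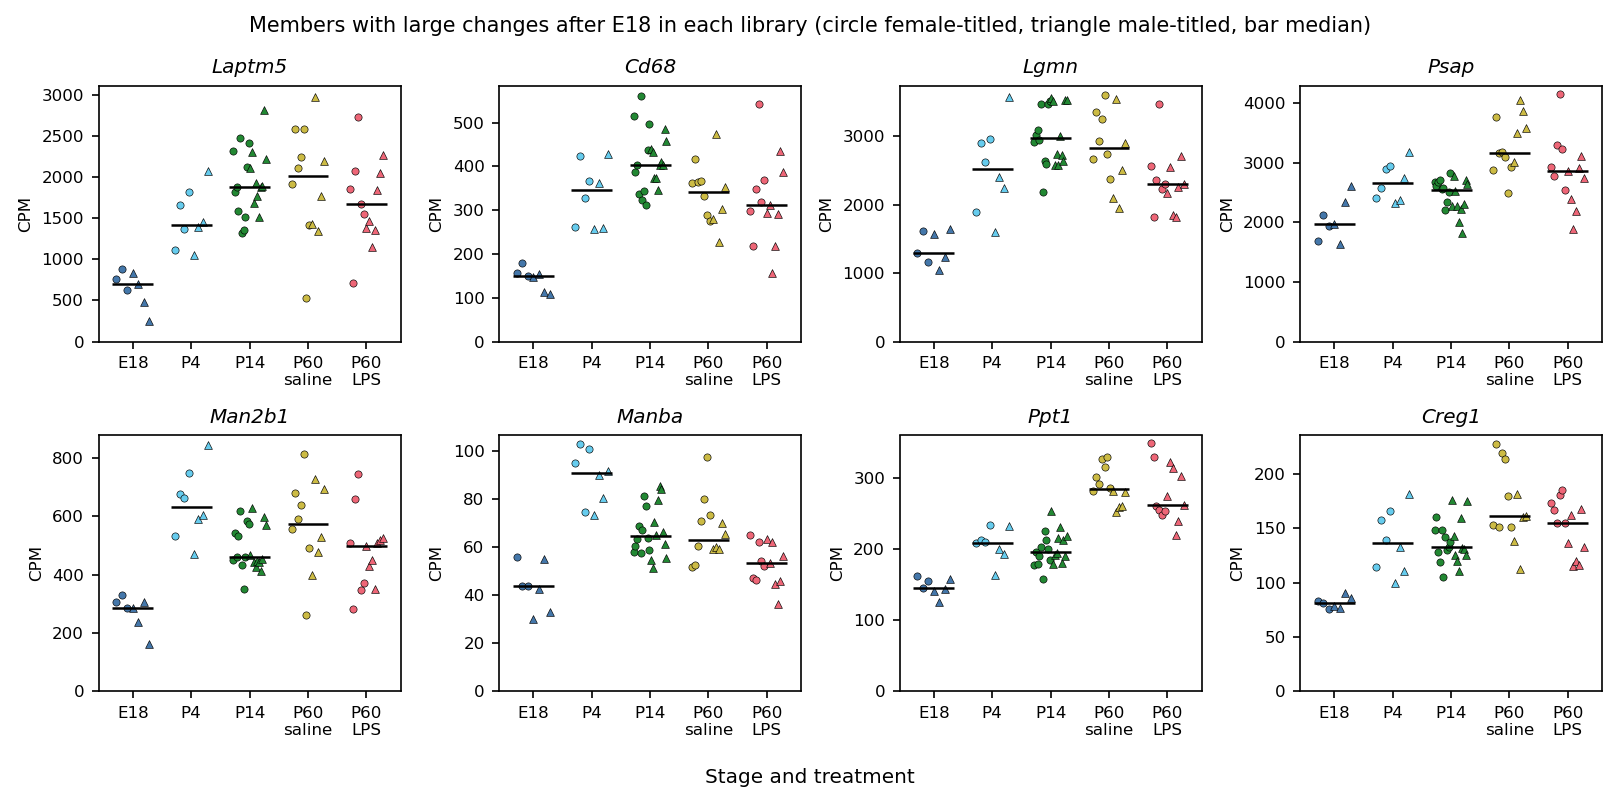
CPM of 8 members in each library by stage and treatment; circles are libraries titled female, triangles those titled male, and bars medians. The E18 points of Laptm5, Cd68, Man2b1, Manba, Ppt1 and Creg1 all lie below the P4 points, whereas Lgmn and Psap overlap between these stages.

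The proton pump, 6 members, changed direction between stages. In this group 1 rose and 2 fell from E18 to P4, 4 rose and 0 fell from P4 to P14, and 0 rose and 4 fell from P14 to P60 with saline. Tcirg1, which encodes the a3 subunit of the membrane domain, ran over 59.8 to 121 CPM (median 74.3) at E18, 142 to 216 CPM (median 169) at P4, 219 to 518 CPM (median 315) at P14, 87.3 to 361 CPM (median 216) at P60 with saline and 75.8 to 300.1 CPM (median 224) with LPS. The ranges of E18, P4 and P14 did not touch, and Tcirg1 rose by 1.09 ± 0.23 and 1.18 ± 0.19 before falling by 0.57 ± 0.16. The fall was -0.25, adjusted p = 0.211 without the saline libraries of the last date, whose median was 126 CPM against 267 CPM on the second date. Atp6v0d1, another subunit of the membrane domain, ran over 177 to 294 CPM (median 208) at E18, 134 to 169.9 CPM (median 156) at P4, 139.7 to 230.4 CPM (median 186) at P14, 60.2 to 119.7 CPM (median 91.1) at P60 with saline and 58.4 to 118 CPM (median 83.3) with LPS. It fell by 0.48 ± 0.16, rose by 0.53 ± 0.13 and fell by 0.93 ± 0.12 (adjusted p = 1.13e-08), and every saline library lay below every library of the 3 earlier stages.

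Atp6v1b2 and Atp6v1a encode the B2 and A subunits of the domain that hydrolyses ATP. Atp6v1b2 ran over 291 to 382 CPM (median 333) at E18, 244 to 393 CPM (median 314) at P4, 291 to 471 CPM (median 364) at P14, 158 to 258 CPM (median 191) at P60 with saline and 120.2 to 209 CPM (median 171) with LPS. It rose by 0.50 ± 0.12 and fell by 0.92 ± 0.11 (adjusted p = 2.3e-09), without overlap between P14 and P60. For Atp6v0d1 and Atp6v1b2 the fall to P60 kept its call in every alternative fit, the smallest being 0.73 for Atp6v1b2 without the saline libraries of the second date. Atp6v1a ran over 99.3 to 328 CPM (median 255) at E18, 252 to 305 CPM (median 286) at P4, 295 to 526.2 CPM (median 345) at P14 and 123 to 434 CPM (median 234) at P60 with saline. It rose by 0.68 ± 0.16 and fell by 0.50 ± 0.14, with saline libraries on both sides of the P14 range's lower end, and the fall was -0.09, adjusted p = 0.63 without the saline libraries of the second date.

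Atp6v1h, a regulatory subunit, fell by 0.44 ± 0.17 from E18 to P4 and passed at no later step, with medians of 89.2, 86.1 and 89.6 CPM from P4 to P60 with saline. Atp6ap1, an accessory protein of the pump, passed at no single step with edgeR and was 0.49 ± 0.18 higher at P60 with saline than at E18, a call lost in 6 of 36 other fits (0.30, adjusted p = 0.136 with the size factors of DESeq2). From E18 to P4 it was at -0.10 ± 0.19, but at 0.36, adjusted p = 0.00137 with limma-voom and 0.30, adjusted p = 0.0153 without the 3 libraries rich in Ttr. Summed over the 6 members, the level was 1215 to 1466 CPM (median 1344) at P4, 1480.2 to 1993 CPM (median 1660.2) at P14 and 1071 to 1591 CPM (median 1261) at P60 with saline.

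**Figure D4:**
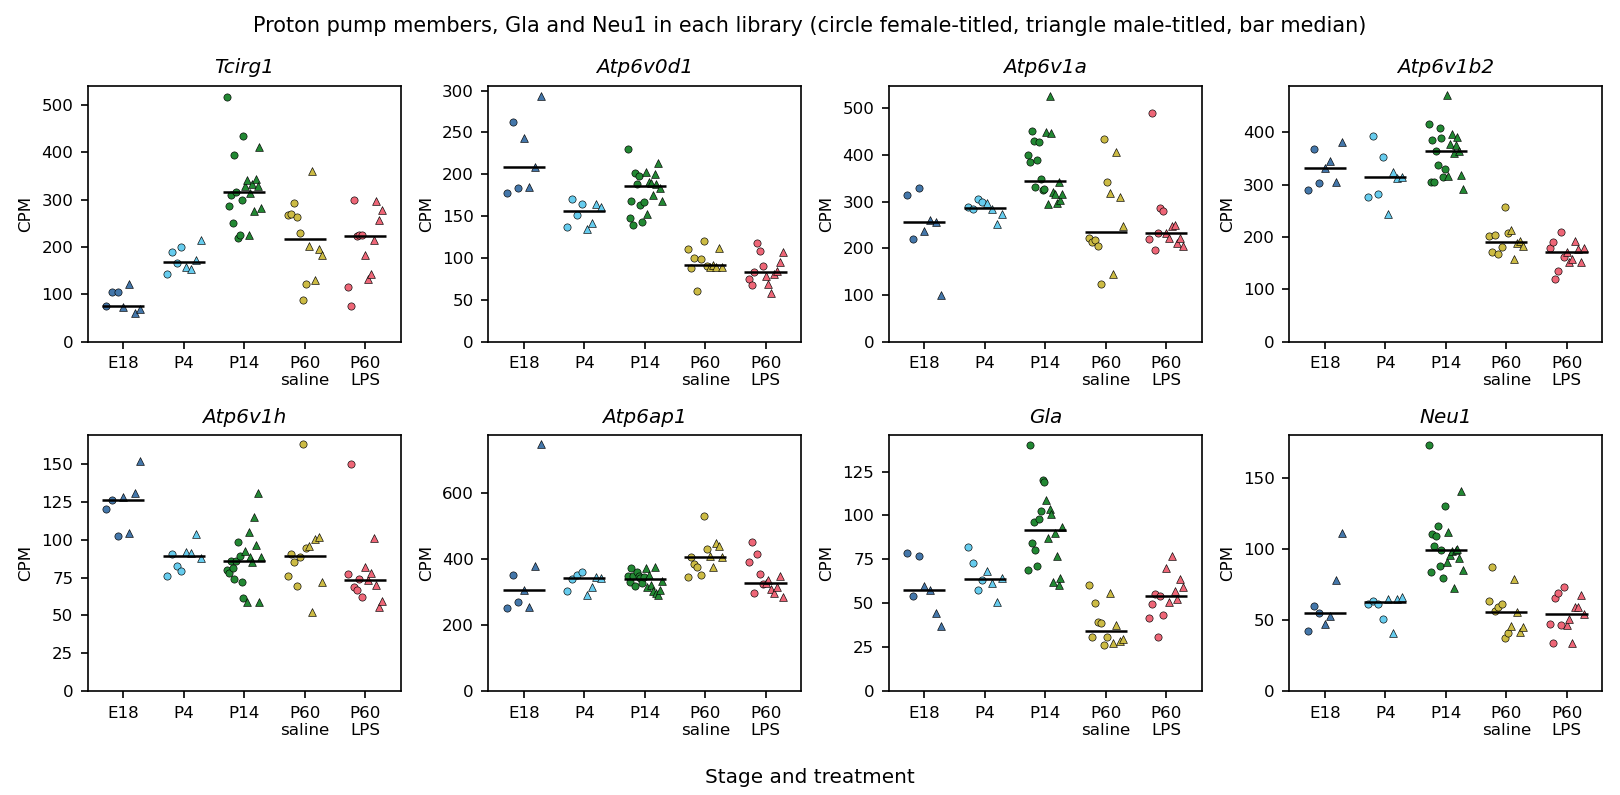
CPM of the 6 proton pump members, Gla and Neu1 in each library by stage and treatment; circles are libraries titled female, triangles those titled male, and bars medians. Tcirg1, Gla and Neu1 are highest at P14, and the P60 saline points of Atp6v0d1, Atp6v1b2 and Gla all lie below the P14 points.

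Other genes of the lysosome, in lists that hold no member, were counted beside these. Of all genes tested, 20.6% rose and 20.8% fell from P4 to P14, and 18.5% rose and 25.7% fell from P14 to P60 with saline. Of 14 other proton pump genes, 8 rose and 2 fell from P4 to P14, and 0 rose and 4 fell from P14 to P60 with saline. Atp6v1d, a stalk subunit, was at 0.81 ± 0.15 and then -0.52 ± 0.13, and Atp6v0c, the proteolipid, fell by 1.16 ± 0.22. Atp6v0d2, the relative of Atp6v0d1 used in osteoclasts, fell from a median of 4.96 CPM at P4 to 0 at P14. Of 23 sorting and biogenesis regulators, 7 rose and 4 fell from P4 to P14, and 6 rose and 6 fell to P60. Fnip1, Flcn and Rragc, which act with mTORC1 at the lysosomal surface, rose by 1.61 ± 0.19, 1.35 ± 0.16 and 0.85 ± 0.13 to P14 and fell by 1.57 ± 0.17, 1.24 ± 0.14 and 1.11 ± 0.12 to P60. Tfe3, a relative of Tfeb, rose by 1.26 ± 0.26 from E18 to P4.

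Of 32 other soluble hydrolases and cofactors, 16 rose and 1 fell from E18 to P4, where 25.5% of all genes tested rose and 22.7% fell. Among 12 cathepsins tested, 7 rose and 0 fell to P4, and 5 rose and 4 fell from P14 to P60. Ctss, a cysteine protease of antigen-presenting cells, ended 3.01 ± 0.22 above E18, whereas Ctsb fell by 0.49 ± 0.12 from P14 to P60. Of 26 other membrane proteins tested, 12 rose and 2 fell to P4, and 11 rose and 4 fell to P14. Cd164, a sialomucin, rose by 1.04 ± 0.15 and 1.13 ± 0.13, and Gpnmb, a glycoprotein of phagocytes, fell by 3.80 ± 0.28 between P4 and P14.

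After LPS 1 member passed the test. Compared with saline at P60, 7 members had a positive change and 30 a negative one, and the median was -0.13 over the members and -0.07 over all genes. With edgeR 5 of 37 members and 2752 of the 10538 genes tested had an unadjusted p under 0.05. No member fell with edgeR, 1 did with DESeq2 and 3 with limma-voom, and shares over all genes were not counted with the last 2. No member had ranges without overlap (1.28% of genes). The member that rose was Gla. It ran over 30.9 to 77 CPM (median 54.1) in 13 LPS libraries against 26.2 to 60.3 CPM (median 34.3) in 12 saline libraries, so the groups overlapped. At or under 49.97 CPM lay 10 of 12 saline and 4 of 13 LPS libraries. That cut is itself a saline value, so these counts describe the overlap and are no test. The rise was 0.57 ± 0.15 (adjusted p = 0.0071), an average over the titled sexes. In libraries titled male the median was 29.9 CPM with saline and 59.3 with LPS. In those titled female it was 38.7 and 46.6 CPM. With edgeR the difference between the LPS effects of the sexes passed for no member.

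The rise of Gla was not the same against every collection date. The 2 saline libraries of the first date were at 55.8 and 60.3 CPM, inside the LPS range, the 6 of the second at 27.6 to 49.97 CPM and the 4 of the last at 26.2 to 37.8 CPM. The LPS libraries had medians of 50.8, 54.9 and 56.7 CPM on their 3 dates. The call was lost without the saline libraries of the second date (0.48, adjusted p = 0.0809) and without those of the last (0.46, adjusted p = 0.0567). LPS libraries of 1 date alone against all saline libraries gave 0.54, 0.30 and 0.63, with adjusted p = 0.167, 0.611 and 0.0794.

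**Figure D5:**
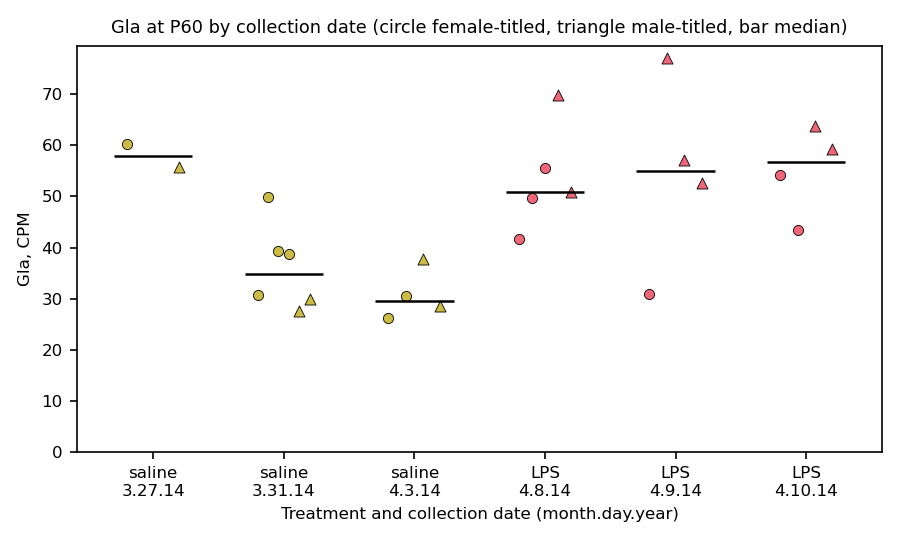
Gla in CPM in each P60 library by treatment and collection date; circles are libraries titled female, triangles those titled male, and bars medians. The 2 saline libraries of the first date, at 55.8 and 60.3 CPM, lie among the LPS libraries, and the other 10 lie at 26.2 to 49.97 CPM.

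The other 36 members did not pass. Lipa, with 98.7 to 219 CPM (median 139.8) after LPS against 150.2 to 211 CPM (median 194) with saline, was at -0.29 ± 0.10 (adjusted p = 0.0658). Npc1 was at -0.37 ± 0.15, Smpd1 at -0.41 ± 0.19 and Scarb2 at -0.25 ± 0.11, none passing. Cd68 was at 0.03 ± 0.15 and Laptm5 at -0.09 ± 0.20. In the same comparison 7 of 7 neutrophil markers tested rose and their sum had a median of 111 CPM with saline and 742 with LPS, ranging up to 5782 in M_P60_LPS 3. Monocyte markers, of which 5 of 7 tested rose, had median sums of 71.4 and 191 CPM, and 4 of 10 microglia markers fell. The part of these cells in the values of the members was not tested. Of the other lysosomal lists, Ifi30, a thiol reductase of antigen processing, rose by 0.84 ± 0.22, Cd164 by 0.43 ± 0.12, Atp6v0a2 by 0.36 ± 0.10 and Fnip1 by 0.43 ± 0.14, while Pcyox1 fell by 0.52 ± 0.12, Hyal2 by 0.73 ± 0.25, Tpcn1 by 0.59 ± 0.18 and Ctns by 0.42 ± 0.13.

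No member passed the test between libraries titled male and female at any stage. Male over female, 0 of 37 passed at E18 (0.0722% of genes called), P4, P14 and P60 with saline (0.0433% each) and with LPS (0.142%). In the same order, edgeR gave 11, 0, 3, 3 and 7 members an unadjusted p under 0.05. Of all genes tested, 2602, 46, 655 and 1340 of 13853 and, with LPS, 1710 of 10538 were under it. At E18 DESeq2 called 4 members and limma-voom 1. These values rest on 3 female and 4 male libraries, among them the one titled M_E18 4, and leaving out M_E18 2 or M_E18 1 gave 11 or 6 calls. Both of these fits kept M_E18 4, which had 0 counts of 4 Y-linked genes, among a smaller male group, so their calls cannot be read as differences by sex. The difference between the LPS effects of the sexes (male minus female) also passed for 0 of 37 (0.883% of genes called). For 7 members the unadjusted p with edgeR was under 0.05, as it was for 2255 of the 10538 genes tested. DESeq2 called 1 member and limma-voom 4. The largest such difference was that of Gaa, at -1.19 ± 0.35 (adjusted p = 0.0652). Its mean was 174 ± 41.6 CPM in 5 male saline libraries and 87.1 ± 31.7 in 7 male LPS libraries (SD), against 111 ± 39.2 in 7 and 135 ± 46.4 in 6 female libraries.

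Within a stage the members moved partly together from library to library. At P4 the library titled M_P4 1 held the lowest value of 23 of the 37 members and M_P4 4 the highest of 15, and these 2 also had the lowest and highest summed microglia markers of the stage, 8462 and 19588 CPM. The summed members went with collection date. They were lowest in M_P4 1 and F_P4 1 of 1 date (12625 and 13736 CPM) and highest in M_P4 4 and F_P4 4 of another (20692 and 19556 CPM). The main test treated these libraries as separate and took no account of date. At P60 the saline library F_P60_Sal 6, with 12% Ttr and the fewest counts of all, held the lowest value of 16 members and the highest of 13. Among LPS libraries F_P60_LPS 4 held the highest value of 16. Finally, 8 members share exon bases with another protein-coding gene in the GENCODE annotation of GRCm38: Glb1 with Tmppe on the same strand, and Atp6v1h, Cln3, Grn, Hexa, Lamp1, Npc1 and Ppt1 with a gene on the other. The kit marked strand, but the strand setting of the counting is not given in the sources used here, so reads of such partners may be counted together.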

How the data were processed

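Strand-marking polyA libraries of 60 microglia samples were sequenced. The authors deposited raw read counts per transcript, unnormalized. CASAVA 1.8.2, edgeR and build mm9 were used, per the submitters' processing notes, with aligner and counting tool not given in the sources used here. One row was kept per gene symbol, the row marked in the table as the best transcript, or else the one with most counts, giving 22869 symbols from 28644 rows. Of the 37 members, 9 had more than 1 row, and for Gaa, Lipa and Tfeb the marked row was not the one with most counts. Levels are CPM over all symbols.

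Counts were tested with the quasi-likelihood F test of edgeR 4.0.16 (R 4.3.3, robust fit, TMM normalization, filterByExpr) on the 47 untreated and saline libraries (13853 genes) or the 25 libraries of P60 (10538 genes), in groups of stage or treatment and titled sex, with contrasts averaging the sexes and Benjamini-Hochberg adjustment over all genes tested. The scripts were tested on simulated data. Alternatives were DESeq2 1.42.0, its size factors in edgeR, limma-voom (limma 3.58.1), other filters, the replicate block, and libraries or dates left out. The comparison of LPS libraries of single dates was added after seeing the data. Tables and figures used Python 3.11.15, pandas 2.3.3 and numpy 2.4.6. Members and gene lists were chosen with earlier results of these data known. All 37 members are named. Full values are given for those past the threshold with the largest changes in each role group and comparison, up to 4 a group, with some other members shown as well, and of the other lysosomal lists up to 3 genes of smallest p per direction and comparison were eligible. No 2 libraries of the same group were copies of each other: the chi-square per gene was 2.04 to 109 over 178 pairs within groups. Pairs of libraries from different groups were not checked. At P4 a replicate number marks 1 collection date in both sexes, per the labels, and deviations of same-numbered libraries correlated at 0.385 to 0.512. They did so at 0.149 to 0.461 between females at E18 and P4, where no date is shared. In each other pair of groups the lowest correlation was at most 0.0533, but means differed. At P14, where the numbers of both sexes fall on the same dates, the mean was 0.254 (highest 0.481) against -0.0285 for other numbers. The mean was 0.210 between males at E18 and P60 with saline, and -0.217 between males at P4 and P14. The main test treated the P14 libraries as separate too.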

Additional observations from a re-analysis of the deposited data

Results flagged for a closer look

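In groups of 4 to 10 libraries (E18 and P4), a member was singled out when its highest or lowest library stood apart from the nearest other by more than Dixon's 95% critical value allows. Of 76 groups tested, 6 met this, and chance alone flags about 1 in 20 groups. The library titled M_E18 4, with 24.8% of its counts in Ttr, gave 5 of the 6. There Hexa was at 841 CPM (next highest E18 library 479), Npc2 at 851 (528), Cd63 at 496 (164) and Atp6ap1 at 749 (377), and Tfeb was lowest at 1.46 CPM (next 8.70). Over all 37 members this library lay above the other 6 E18 libraries for 15, below them for 10 and within their range for 12. At P4 Cd63 was at 121 CPM in F_P4 4, where the next library had 98.2 CPM. The part of choroid plexus cells in these values was not tested.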

How the results depend on the processing

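Of the member calls by edgeR, 20 of 24 from E18 to P4, 10 of 15 from P4 to P14, 5 of 15 from P14 to P60 with saline and 19 of 26 from E18 to P60 were kept in all 36 alternative fits, and the LPS call of Gla failed in 5 of 23. Here and above, the 36 count the fit without M_E18 4 more than once. They also include fits that drop only libraries outside the comparison, so they are not 36 separate checks. From E18 to P4 the count that fell, 3, was 5 with DESeq2, with its size factors in edgeR, and without the saline libraries of the second or the last date. From P4 to P14 the count that fell, 2, was 5 with DESeq2, and 1 without the P14 libraries of the second date. From P14 to P60 the count that rose, 5, was 10 with DESeq2, limma-voom, the DESeq2 size factors, a minimum of 5 CPM and without the P14 libraries of the last date. It was 13 without the libraries over 10% Ttr, 11 without M_E18 4, 8 without the P14 libraries of the first date and 2 without those of the second, and the count that fell, 10, was 5 without the saline libraries of the last date. From E18 to P60 the count that fell, 4, was 2 with limma-voom, without the libraries over 10% Ttr and without M_E18 4. After LPS the count that rose, 1, was 0 without the saline libraries of the second or the last date and with LPS libraries of any 1 date. The count that fell, 0, was 1 with DESeq2, with the 5 CPM minimum and with sex from the characteristic, 3 with limma-voom and 2 without the LPS libraries of the first date. By sex at E18, 0 became 4 with DESeq2 and 1 with limma-voom, and sex by LPS, 0, became 1 with DESeq2, 4 with limma-voom and 1 without the libraries over 10% Ttr. The median summed level at E18, 11544 CPM, was 9374 with TMM-scaled library sizes. The causes were not tested.

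Single libraries were left out in turn at E18, at P4 and in the male-titled saline group, and in no other group. This gave 19 to 21 risers and 2 to 5 fallers from E18 to P4, and 12 to 16 and 2 to 3 from P4 to P14. It gave 4 to 11 and 9 to 12 from P14 to P60, and 21 to 24 and 2 to 5 from E18 to P60. After LPS, where only male-titled saline libraries were left out, the counts were 1 to 1 and 0 to 0. By sex they were 0 to 11 at E18 and 0 to 0 in the other comparisons. Some values took the opposite sign. Glb1 between E18 and P60 was 0.057 with limma-voom and 0.093 without the libraries over 10% Ttr. From E18 to P4, with limma-voom, Neu1 was at 0.39 (adjusted p = 0.035), Mcoln1 at 0.39 (adjusted p = 0.007) and Atp6ap1 at 0.36 (adjusted p = 0.00137), and without the libraries over 10% Ttr Atp6ap1 was at 0.30 (adjusted p = 0.0153), all past the threshold. Over all genes, the median change from E18 to P4 was 0.03, or -0.10 with size factors from DESeq2, and from E18 to P60 it was -0.08, or -0.26.

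With the replicate number of the titles as a block, 21 members rose and 3 fell from E18 to P4, 12 and 1 from P4 to P14, 6 and 9 from P14 to P60 with saline, 22 and 3 from E18 to P60, and 1 and 0 after LPS, with 0 called by sex. No other count moved by over 1.5 times under the block than that of members falling from P4 to P14. The block gave each number the same effect at all stages in a fit, whereas a number stands for different dates at different stages. It therefore does not represent the date pairs at P4, and these counts are no check of them. The depth of the LPS libraries had a median of 970080 counts.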
